A study of Homo sapiens with 4 samples.

Results

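The MYC paralogs and the MAX network were examined at the RNA level in neuroblastoma cells with METTL14 knockdown. The members were taken by gene symbol as MYC and MYCL, their obligate partner MAX, the MAX-binding repressors MXD1, MXD3, MXD4, MXI1, MNT and MGA, and MLX, the MAX-like factor. They make up 10 of the 60671 gene IDs counted, and each of the 10 symbols matched 1 ID. The RNA came from SK-N-BE(2), a human neuroblastoma cell line in long-term culture that carries extra copies of the MYCN gene. The control group (shNC, 2 libraries) carried a scrambled short hairpin RNA and the knockdown group (shMETTL14, 2 libraries) a hairpin against METTL14, a subunit of the complex that places N6-methyladenosine (m6A) on RNA. In the study, hairpins were delivered with a pLKO.1 lentiviral vector and infected cells were selected with puromycin, so the cells of both groups carried a vector. The sources used here do not say which METTL14 hairpin the sequenced cells carried, nor whether the 2 libraries of a group came from separate cultures, so that p-values measure only the spread between these libraries, which may be technical.

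Depth was even, with between 18925786 and 19886214 reads counted in genes per library. METTL14 itself had 753 and 754 counts in the shNC libraries and 303 and 321 in the shMETTL14 libraries, and its level fell to 41.7% of the control (log2 fold change -1.26 ± 0.0832 SE, edgeR adjusted p = 3.6e-11). All 7 markers of noradrenergic neuroblastoma that were examined were expressed, and their summed level was 2179 and 2175 CPM (counts scaled to library size) in shNC against 1817 and 1828 CPM in shMETTL14. Of 10 markers of other cell types, 3 were at the floor of 3 counts in every library, and the summed level of the 10 was 20.3 and 21.3 CPM in shNC against 13.8 and 15.5 CPM in shMETTL14. Both marker sums were lower after knockdown, and their part in the results below was not tested. In bulk RNA, fewer cells of a type and less RNA per cell cannot be told apart.

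MYC proteins bind DNA only as dimers with MAX, and these dimers recognise the E-box and activate genes of growth, ribosome production and metabolism. MXD proteins, MNT and MGA compete for MAX and repress E-box genes, the MXD proteins and MNT through the SIN3 and histone deacetylase corepressor, MGA as part of the non-canonical Polycomb complex PRC1.6. MLX forms a parallel branch with the glucose-sensing factors MLXIP (MondoA) and MLXIPL (ChREBP), and it also dimerises with some MXD proteins and MNT. In neuroblastoma the MYC protein of the network is usually MYCN, whose gene is amplified in part of these tumours.

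The network's own binding sequence occurs in the promoters of some members, so these stretches are shown first. RefSeq promoter windows on GRCh38.p14, running from 250 bases before to 50 bases after an annotated start, were searched for the canonical E-box CACGTG, which reads the same on both strands. A window was found for 9 of the 10 members, MYC having none in the table, and 3 of these 9 held the E-box in a window, against 8.77% of the 27305 genes with a window. Each stretch of 30 bases is given 5′ to 3′ on the strand of its gene with the E-box in capitals. The MXD4 stretch lies at chr4:2262330-2262359 (minus strand), with the E-box 238 bases before the start. The MNT stretch lies at chr17:2401236-2401265 (minus strand), 193 bases before the start, and that of MLX at chr17:42567038-42567067 (plus strand), 50 bases before it.
MXD4: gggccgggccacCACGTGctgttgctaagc
MNT: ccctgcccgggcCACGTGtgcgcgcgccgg
MLX: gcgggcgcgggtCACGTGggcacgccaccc
The 3 stretches share the 6 capital letters and have different flanks. A match describes the letters of the window and was not tested for binding.

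To compare levels between genes, CPM were divided by the length of all annotated exons of a gene. On this scale, in CPM per kb, the network was dominated by MYCN, which had 1013 and 998 in shNC and 1212 and 1227 in shMETTL14. MYCN supplied 91.7% of the summed level of the 13 network genes in each shNC library, and 93.3% and 93.5% in the shMETTL14 libraries. The 10 members together supplied 7.54% and 7.6% in shNC and 6.09% and 5.95% in shMETTL14. Among them MAX was highest, with a mean of 20.3 ± 1.39 CPM per kb (SD over the 4 libraries), followed by MLX at 17.6 ± 1.2, MXI1 at 12.4 ± 1.16 and MXD4 at 11.1 ± 0.399. Below these lay MXD3 at 7.34 ± 0.953, MGA at 5.9 ± 0.66, MXD1 at 3.19 ± 0.23 and MNT at 2.64 ± 0.312. MYCL (0.244 ± 0.0607) and MYC (0.0558 ± 0.0454) were far below the rest. MXI1 lay above MXD4 in both shNC libraries (13.5 and 13.2 against 11.7 and 11). In shMETTL14 they crossed, with MXI1 higher in library 1 and MXD4 higher in library 2 (11.2 against 11.1). The SD over the 4 libraries also holds the difference between the groups. Every other member lay above the next member in each of the 4 libraries, MXD3 above MGA included, although the ranges of MXD3 and MGA over all 4 overlapped. This order and the summed levels per kb rest on the length used. For MXD3 it was 5154 bases, against 1483 in its longest principal transcript, and for MXD4 7058 against 4056. The order could differ with another length, which was not tried. The MLX partner MLXIP averaged 7.87 ± 0.363, and MLXIPL was near the floor at 0.0134 ± 0.00548.

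**Figure D1:**
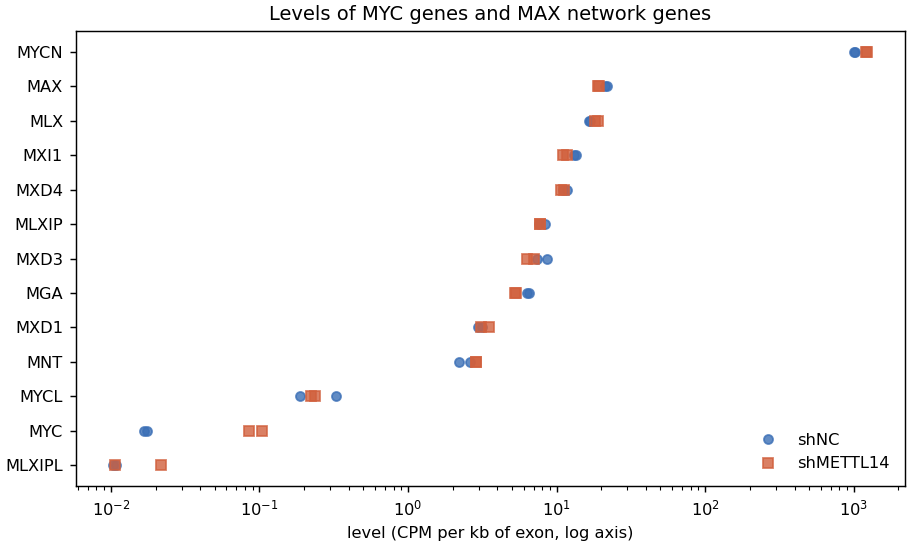
Level of each network gene in every library, in CPM per kb of exon on a log axis (circles, shNC; squares, shMETTL14; 2 libraries each). MYCN lies between 998 and 1227, most members lie between 2.2 and 21.8, and MYCL and MYC lie below 0.4.

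Of the 10 members, 9 had enough counts to test, and 6 of these 9 passed the threshold (edgeR, Benjamini-Hochberg adjusted p under 0.05 over 16309 genes). The background was high: 52.5% of all tested genes passed, 27.2% as higher and 25.3% as lower. MGA, MXI1, MXD3 and MAX fell, and MNT and MLX rose. The changes were small, since the largest, that of MGA, was -0.28 on the log2 scale, while the median absolute change over all tested genes was 0.30. The median over the 9 tested members was -0.17, against -0.00095 over all tested genes. The 2 groups did not overlap for 6 of the 9 tested members, against 75.5% of tested genes. With DESeq2, MGA alone was called, against 32.9% of the genes it tested, and without shMETTL14 replicate 1 the edgeR count was 3. With upper quartile scaling, under which the median change over all tested genes was -0.07 on the log2 scale, the 2 higher calls were lost and the 4 lower ones stayed, and over all genes the share of calls that were higher moved from 51.8% to 41.7%.

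Among the MYC paralogs, MYCN, which is no member but crosses the network as the dominant paralog, had 2637 and 2596 CPM in shNC and 3153 and 3193 CPM in shMETTL14. It rose to 121% of the control (log2 fold change 0.28 ± 0.0334, adjusted p = 3.8e-07). MYC, the broadly expressed paralog on chromosome 8, had 1 count in each shNC library and 5 and 6 counts in the shMETTL14 libraries. Both shMETTL14 libraries were above both controls, but at 0.0502 and 0.0522 CPM against 0.255 and 0.312 CPM the gene was too low for the edgeR test. Summed over each group, 2 counts against 11 gave a ratio of 5.54 with a 95% counting interval from 1.21 to 51.4 (exact, for counting error only). Without the filter on low counts, edgeR gave an adjusted p of 0.168. DESeq2 gave no adjusted p for MYC, and its unadjusted p was 0.158.

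MYCL, the paralog first found in lung cancer (chromosome 1, 39895426 to 39902256, minus strand, GENCODE 29 on GRCh38 as for all positions of genes), had 19 and 32 counts in shNC and 22 and 23 in shMETTL14. Both knockdown libraries lay between the control libraries, so the groups overlapped (0.953 and 1.67 against 1.12 and 1.2 CPM). The log2 fold change of -0.17 ± 0.377 did not pass (adjusted p = 0.728), and its sign depended on shNC replicate 2, without which it was 0.29. A change of MYCL was not detectable at this depth.

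MAX, the shared dimer partner of MYC, MXD, MNT and MGA proteins (chromosome 14, 65006174 to 65102695, minus strand), had 1921 and 1808 counts in shNC and 1663 and 1629 in shMETTL14. These counts correspond to 96.4 and 94.4 CPM in the controls and 84.9 and 84.6 CPM after knockdown. Both shMETTL14 libraries lay below both shNC libraries, and the replicates within each group were close. MAX fell from 95.4 ± 1.39 to 84.8 ± 0.206 CPM (SD, n = 2), 88.9% of the control, with a log2 fold change of -0.17 ± 0.0471 (edgeR adjusted p = 0.00436). The call was lost with DESeq2 (adjusted p = 0.0839) and held in the other 10 alternatives. With MYCN higher and MAX lower, the ratio of MYCN to MAX level per kb was 46.6 and 46.8 in shNC and 63.2 and 64.2 in shMETTL14.

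The MXD family, whose proteins replace MYC on MAX as cells leave the cycle or differentiate, had 4 members measured, of which MXI1 and MXD3 fell and MXD1 and MXD4 did not pass. MXI1 (also called MXD2; chromosome 10, 110207605 to 110287365, plus strand) had 62.2 and 60.9 CPM in shNC and 54.3 and 51 CPM in shMETTL14, from 1240, 1166, 1064 and 981 counts. Both knockdown libraries were lower than both controls. MXI1 fell to 85.5% of the control (61.6 ± 0.934 to 52.7 ± 2.38 CPM), with a log2 fold change of -0.23 ± 0.0579 (edgeR adjusted p = 0.00247). The call was lost without shMETTL14 replicate 2 (-0.17, adjusted p = 0.071) and with DESeq2 (adjusted p = 0.0588).

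MXD3, the family member known from proliferating cells in S phase (chromosome 5, 177301461 to 177312757, minus strand), had 38 and 44.3 CPM in shNC and 32.4 and 36.6 CPM in shMETTL14, from 757, 848, 635 and 704 counts. The groups did not overlap, but the higher knockdown library lay only just under the lower control. MXD3 fell to 83.9% of the control (41.1 ± 4.46 to 34.5 ± 2.93 CPM), with a log2 fold change of -0.25 ± 0.0815 (edgeR adjusted p = 0.0126). The call was lost without shNC replicate 2 (-0.13, adjusted p = 0.233), without shMETTL14 replicate 1 (-0.16, adjusted p = 0.154) and with DESeq2 (adjusted p = 0.113). Its exons also share bases with those of neighbouring genes, 22.5% of its exon length with PRELID1 on the other strand and 18% with RAB24 on the same strand. The strand setting of the counting is not given in the sources used here, so the MXD3 counts are uncertain. PRELID1, a mitochondrial lipid transfer protein, rose (0.37 ± 0.0458, adjusted p = 5.4e-07), and its part in the MXD3 value was not tested.

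MXD1 (MAD1; chromosome 2, 69897688 to 69942945, plus strand), a repressor induced in differentiating cells, had 18.9 and 20 CPM in shNC and 22.3 and 19.7 CPM in shMETTL14. The groups overlapped, and the difference of 0.11 ± 0.0928 did not pass (adjusted p = 0.321). MXD1 shares 3.73% of its exon length with SNRNP27 on the same strand. MXD4 (chromosome 4, 2247432 to 2262294, minus strand), whose promoter window holds the first of the E-boxes shown above, had 82.3 and 77.9 CPM in shNC and 75.5 and 78.8 CPM in shMETTL14. Its groups overlapped as well (-0.05 ± 0.0513, adjusted p = 0.392). Summed per kb, the family had 35.5 and 36 CPM per kb in shNC and 32.3 and 32.4 in shMETTL14, which did not overlap. Relative to MAX in the same library the sum was 1.63 and 1.69 in shNC and 1.68 and 1.7 in shMETTL14, which did overlap.

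MNT and MGA, both large repressors that bind MAX, moved in opposite directions. MGA, which joins a MAX-binding domain to a T-box DNA-binding domain (chromosome 15, 41621224 to 41773081, plus strand), had 116 and 112 CPM in shNC and 94.7 and 93.4 CPM in shMETTL14, from 2309, 2150, 1854 and 1798 counts. Both knockdown libraries lay well below both controls. MGA fell to 82.5% of the control (114 ± 2.52 to 94.1 ± 0.895 CPM), with a log2 fold change of -0.28 ± 0.0457 (edgeR adjusted p = 2.4e-05). Of the called members only MGA passed in all 11 alternatives, with log2 fold changes from -0.35 to -0.26 and an adjusted p of at most 8.7e-04. Even so, 52.8% of all tested genes had a larger absolute change.

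MNT, the broadly expressed repressor that opposes MYC in growing cells (chromosome 17, 2384060 to 2401118, minus strand), had 22.9 and 19.3 CPM in shNC and 25.2 and 24.8 CPM in shMETTL14, from 456, 369, 494 and 478 counts. Both knockdown libraries were higher than both controls, while the 2 controls differed from each other by more than the gap between the groups. MNT rose to 119% of the control (21.1 ± 2.55 to 25 ± 0.278 CPM), with a log2 fold change of 0.25 ± 0.0915 (edgeR adjusted p = 0.0278). The call was lost in 5 of 11 alternatives, among them without shNC replicate 2 (0.13, adjusted p = 0.297), without shMETTL14 replicate 1 (0.24, adjusted p = 0.0709) and with upper quartile scaling (0.18, adjusted p = 0.106). An antisense gene shares 12.2% of its exon length. Within each library, the ratio of MNT to MGA per kb was 0.399 and 0.347 in shNC and 0.539 and 0.538 in shMETTL14, so the balance between both repressors differed without overlap, and this ratio does not depend on library scaling.

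MLX, the partner of the glucose-sensing factors (chromosome 17, 42567068 to 42573239, plus strand), had 71 and 70.1 CPM in shNC and 80.9 and 77.1 CPM in shMETTL14, from 1416, 1342, 1584 and 1483 counts. Both knockdown libraries were above both controls. MLX rose to 112% of the control (70.6 ± 0.679 to 79 ± 2.72 CPM), with a log2 fold change of 0.16 ± 0.051 (edgeR adjusted p = 0.0106). The call was lost with upper quartile scaling (0.09, adjusted p = 0.125), with library size alone (0.12, adjusted p = 0.0598), without shMETTL14 replicate 1 (0.13, adjusted p = 0.128) and with DESeq2 (adjusted p = 0.107). PSMC3IP, a meiotic recombination factor on the other strand, shares 18.1% of the MLX exon length and rose (0.33 ± 0.0783, adjusted p = 0.00137), and its part in the MLX value was not tested.

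The MLX partner MLXIP had 2327 and 2016 counts in shNC and 2113 and 2071 in shMETTL14. Its groups overlapped and it did not pass (-0.04 ± 0.05, adjusted p = 0.491). MLXIPL had 1 or 2 counts in every library and was not tested. The ratio of MLXIP to MLX per kb was 0.503 and 0.46 in shNC and 0.409 and 0.428 in shMETTL14, without overlap.

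**Figure D2:**
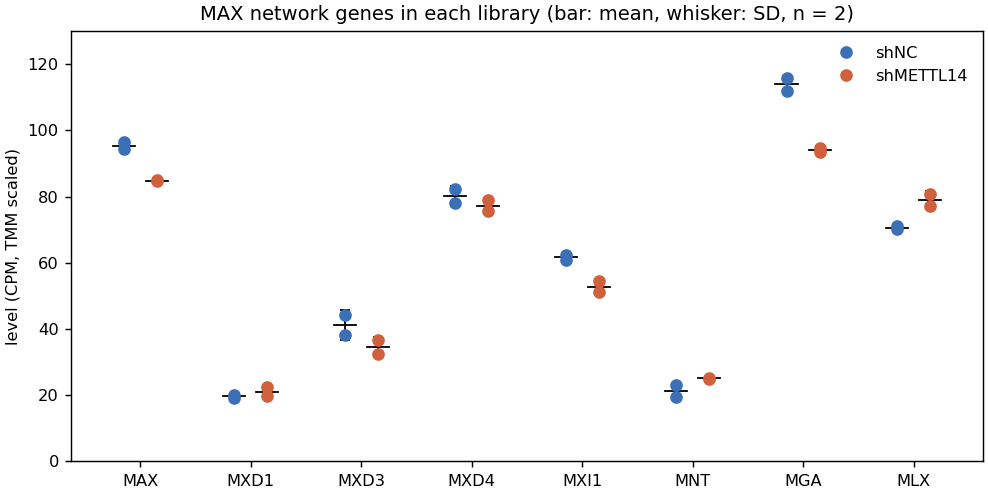
Level in CPM of the 8 members above 10 CPM (blue, shNC; orange, shMETTL14; points, libraries; bar, mean; whisker, SD, n = 2). The groups are apart for MAX, MXD3, MXI1, MNT, MGA and MLX, and they overlap for MXD1 and MXD4.

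**Figure D3:**
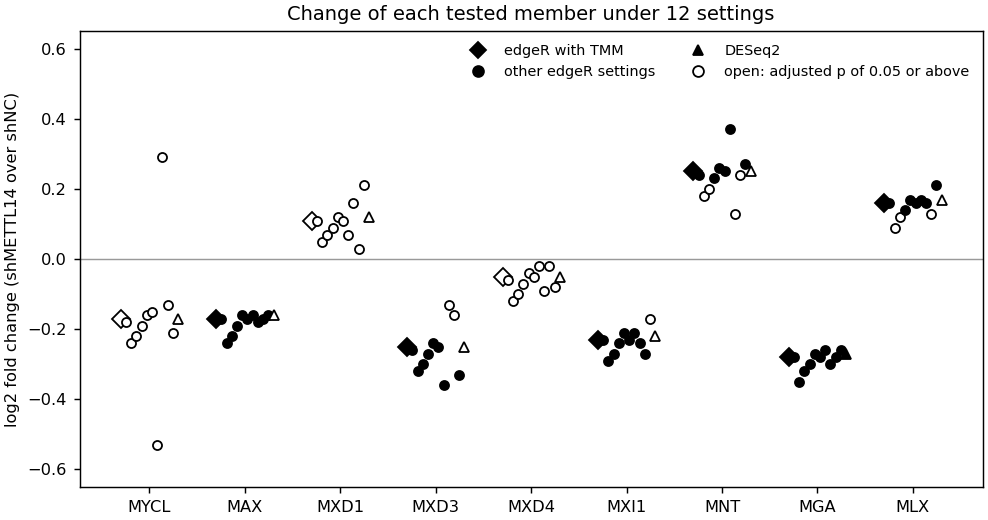
Log2 fold change (shMETTL14 over shNC) of the 9 tested members with edgeR and TMM (diamond), in 10 other edgeR settings (circles) and with DESeq2 (triangle), with open symbols where the adjusted p was 0.05 or above. MGA is filled throughout, MNT and MLX have several open symbols, and MYCL ranges from -0.53 to 0.29.

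As the plot of settings shows, the members that fell were called in more alternatives than those that rose. Of 11 alternatives, MGA was called in 11, MAX in 10, MXI1 in 9 and MXD3 in 8, against 7 for MLX and 6 for MNT. Upper quartile scaling and library size alone shifted the log2 fold changes over all tested genes by a median of -0.07 and -0.05. Under both, MNT and MLX lost the call and the 4 members that fell kept it. The contrast between falling and rising members rests largely on these 2 scalings. Without them, MXI1 was called as often as MLX, MXD3 as often as MNT, and MGA and MAX more often than MLX and MNT. The direction of each of these 6 members was the same in all 11.

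Cofactors of MYC proteins were more often higher than lower. Of 19 listed MYC cofactors, all tested, 10 rose, ZBTB17 among them, and 1, BPTF, fell, with a median log2 fold change of 0.13. The share called, 57.9%, was near the 52.5% over all tested genes. With upper quartile scaling 8 rose and 5 fell. ACTL6A, an actin-related subunit of chromatin remodelling and acetyltransferase complexes, rose from 102 ± 3.5 to 136 ± 3.3 CPM (0.41 ± 0.0458, adjusted p = 1.3e-07). CDK9, the elongation kinase of P-TEFb, rose by 0.39 ± 0.0674, PAF1, an elongation factor, by 0.37 ± 0.0661, and WDR5, which anchors MYC proteins to chromatin, by 0.34 ± 0.0614. The large scaffold TRRAP (0.01 ± 0.0465, adjusted p = 0.862) and the remodeller EP400 (0.02 ± 0.045, adjusted p = 0.763) did not pass.

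The corepressor used by MXD proteins and MNT moved in both directions. Of 16 subunits of the SIN3 and histone deacetylase complex, 7 rose and 5 fell, with a median of 0.10. The share called was 75% of those tested, against 52.5% over all tested genes. With upper quartile scaling 5 rose and 6 fell. Those that rose included ING1 (0.66 ± 0.0749, adjusted p = 1.6e-07) and ING2 (0.63 ± 0.137, adjusted p = 5.5e-04), which read histone methylation, and BRMS1 (0.57 ± 0.0539, adjusted p = 1.3e-08). The 5 that fell were ARID4B (-0.50 ± 0.0522, adjusted p = 5.3e-08), its paralog ARID4A (-0.38), SUDS3 (-0.34), BRMS1L (-0.31) and SIN3B (-0.20). The scaffold SIN3A did not pass (0.11 ± 0.0461, adjusted p = 0.0525).

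Around MGA, 6 of 14 other subunits of PRC1.6 passed, 42.9%, which is below the background, and all 6 were higher. With upper quartile scaling 5 were higher and 1 lower. E2F6, the E2F repressor of this complex, rose from 23.2 ± 0.321 to 31.3 ± 1.4 CPM (0.44 ± 0.0802, adjusted p = 9.3e-05). Its dimer partner TFDP1 rose by 0.43 ± 0.0407 (adjusted p = 1.4e-08) and the chromatin-binding subunit L3MBTL2 by 0.33 ± 0.0855 (adjusted p = 0.00264). WDR5, HDAC1 and HDAC2 stand in this list and in one of the lists above. MGA itself fell while the called subunits of its complex rose.

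Of 18 genes that control the stability of MYC proteins, 11 were called, 6 higher and 5 lower, with a median of 0.04. The share called, 61.1%, was near the 52.5% over all tested genes, and the count was 7 without shNC replicate 2. The ubiquitin ligase subunit FBXW7 (0.33 ± 0.0663, adjusted p = 2.8e-04), the ligase STUB1 (0.43 ± 0.0497, adjusted p = 1.9e-07) and the kinase GSK3B (0.24 ± 0.0441, adjusted p = 7.7e-05), which primes MYC proteins for FBXW7, rose. The 5 that fell were PLK1 (-0.31 ± 0.0444, adjusted p = 4.2e-06), BTRC (-0.21), SKP2 (-0.18), HUWE1 (-0.18) and CIP2A (-0.17). AURKA, a kinase known to shield MYCN from degradation, did not pass (0.09 ± 0.0506, adjusted p = 0.134).

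Textbook targets of MYC proteins were mostly higher where they are known to be activated. Of 40 genes known to be activated by MYC proteins, 30 passed, with 28 higher and 2 lower and a median of 0.29. The share called was 75%, against 52.5% over all tested genes. The list was chosen with earlier results of these data known, so the difference in shares is a description only. With upper quartile scaling 23 were higher and 4 lower. The median absolute change of the 40 genes was 0.30, the same as over all tested genes, against 0.17 for the members. RRS1, a ribosome assembly factor, had 344 and 326 counts in shNC and 602 and 562 in shMETTL14 (0.81 ± 0.0851, adjusted p = 5.8e-08). Spermidine synthase SRM rose by 0.71 ± 0.0464, the ribosome assembly factor GRWD1 by 0.66 ± 0.0859 and AIMP2, a scaffold of the tRNA synthetase complex, by 0.61 ± 0.0518. The 2 that fell were TFAP4 (-0.55 ± 0.0735, adjusted p = 1.7e-06), a bHLH factor, and the nucleolar protein NPM1 (-0.16 ± 0.0344, adjusted p = 6.0e-04). Classical targets that did not pass included NCL (0.02), CAD (-0.07), LDHA (-0.13) and TERT (0.12).

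Of 15 genes known to be repressed by MYC proteins, 14 were tested and 13 passed, 9 lower and 4 higher, with a median of -0.39. The share called was 92.9%, against 52.5% over all tested genes, but this list too was chosen with earlier results known. With DESeq2 10 were called, 6 lower and 4 higher. NDRG1, a differentiation and stress gene, had 227 and 210 counts in shNC and 61 and 69 in shMETTL14 (-1.74 ± 0.154, adjusted p = 4.3e-09). The cell cycle inhibitor CDKN1C had 238 and 226 counts against 74 and 69 (-1.69 ± 0.146, adjusted p = 2.9e-09). NGFR, a neurotrophin receptor, fell as well (-0.99 ± 0.0581, adjusted p = 5.8e-12). Those that rose included TGM2 (1.27), THBS1 (0.89) and GADD45A (0.33). INHBA, at the far left of the plot of lists, had 32 and 41 counts in shNC and 5 and 4 in shMETTL14 (-2.98 ± 0.47, adjusted p = 1.5e-05).

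Of 6 known targets of MLX with MLXIP or MLXIPL, 5 were tested and 5 passed, 4 lower and 1, the fatty acid synthase FASN, higher (0.19 ± 0.0398, adjusted p = 3.5e-04). Over all tested genes 52.5% passed, and this list too was chosen with earlier results known. TXNIP, the arrestin that restrains glucose uptake, had 3378 and 3146 counts in shNC and 979 and 1039 in shMETTL14 (-1.68 ± 0.0499, adjusted p = 1.1e-16). Its paralog ARRDC4 had 775 and 699 counts in shNC and 278 and 268 in shMETTL14 (-1.42 ± 0.0853, adjusted p = 8.1e-12). KLF10 (-0.56 ± 0.0634, adjusted p = 1.8e-07) and the acetyl-CoA carboxylase ACACB (-0.56 ± 0.0884, adjusted p = 1.4e-05) also fell. MLX itself was higher in the same libraries and MLXIP did not pass.

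**Figure D4:**
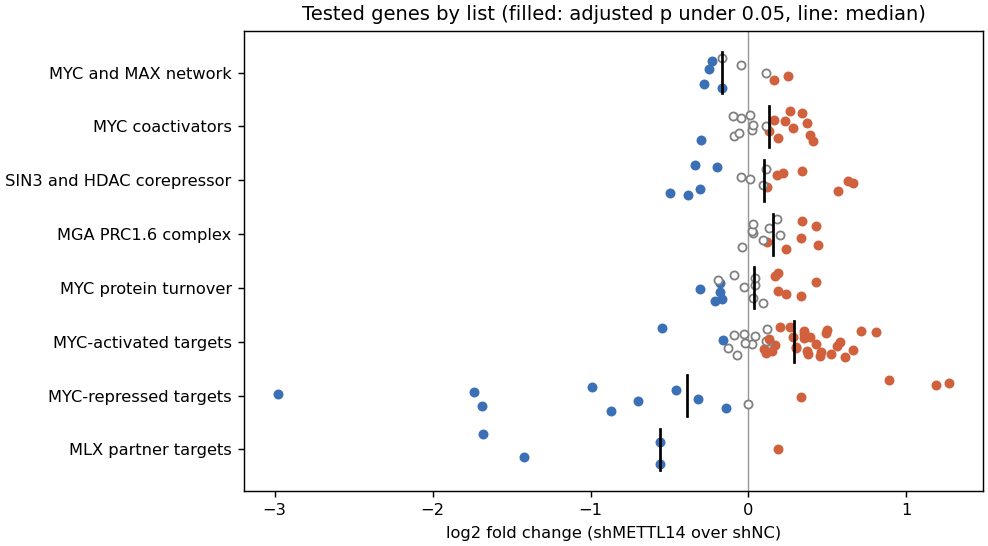
Log2 fold change of each tested gene of the network and of 7 lists around it (orange, called higher; blue, called lower; open grey, adjusted p of 0.05 or above; black line, median of the list). The network lies between -0.28 and 0.25, the MYC-activated list has its median at 0.29, and the lists of MYC-repressed genes and MLX partner targets reach below -1.

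Since METTL14 acts in m6A methylation, the core word GGACT of the m6A consensus was counted on the transcript strand of the longest principal transcript of each tested member. Each of the 9 held the word at least once. The density was 2.02 per kb in MXD3, 1.94 in MAX, 1.78 in MYCL, 1.4 in MNT and 1.16 in MLX, above the median of 0.933 over 12781 tested coding genes, and 0.581 in MGA, 0.493 in MXD4, 0.413 in MXI1 and 0.358 in MXD1, below it. Members that fell lay on both sides of the median, MXD3 and MAX above it and MGA and MXI1 below it, while both members that rose, MNT and MLX, lay above it. Of all these transcripts, 8.35% held no such word. The word marks letters only, and methylation was not measured in these libraries.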

How the data were processed

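The deposited file is a single table of counts, as whole reads given to each Ensembl gene by the authors and not normalized. The submitters' processing notes name HISAT2 2.1.0, StringTie 1.3.6, HTSeq 0.13.5, edgeR and the builds GRCh38 and hg38, with no roles, and the annotation release and strand setting are not given in the sources used here. Lines naming no gene (19.1% to 19.86% of counts) were left out. They include counts labelled ambiguous (5.012% to 5.32%), so reads on shared exons may be missing from MXD3 and MLX.

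Counts were tested with edgeR 4.0.16 in R 4.3.3 (quasi-likelihood F-test, TMM, filterByExpr with a minimum count of 10 and total of 15, group only), with Benjamini-Hochberg adjustment over 16309 genes. CPM are TMM scaled. The SE given with a log2 fold change is not an edgeR output and was calculated from that change and the F statistic. DESeq2 gave larger SEs for the called members, such as 0.0757 against 0.0471 for MAX. With 2 libraries against 2, the smallest two-sided p of an exact permutation test is 0.333, and calls therefore depend on the spread that edgeR estimates over all genes jointly. The edgeR test was also run on simulated data with 200 changed genes, using the means and spread fitted to these data. It recovered 60% of changes of 0.5 and 77.5% of changes of 1 on the log2 scale. Of its calls, 2.44% and 6.06% were false. Changes as small as those of the members, and as many changed genes as were called here, were not simulated. DESeq2 1.42.0, 3 scalings, 2 filters, a replicate block and leaving out each library were the alternatives.

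Members and lists were chosen with earlier results of these data known. All members and network relatives were named, and from each list up to 4 called genes with the largest change at a mean log2 CPM of at least 2. Genes that complete a count of 5 or fewer, and further list genes given with values, were chosen after their values were seen. Some list genes are not reported here. Symbols came from a table of gene names, and lengths and positions from GENCODE 29, which need not be the authors' annotation. Counts near the floor of 3, and intervals on them, cover counting error only.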

Additional observations from a re-analysis of the deposited data

How the results depend on the processing

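Over the 9 tested members and 11 alternatives, 83 of 99 comparisons kept direction and side of the threshold, 15 kept the direction but lost the call, and 1 turned, MYCL to 0.29 without shNC replicate 2, its range over left-out libraries being -0.53 to 0.29. Over 42 other named genes, 452 of 462 were kept, 9 lost the call, and 1 turned, MLXIP to 0.03 without shNC replicate 1, and neither MYCL nor MLXIP was called in any of them. With DESeq2, 5546 genes were called, 1 of the members and 0 of the other cell type markers (2 at an unadjusted p under 0.05), against 8561, 6 and 2 with edgeR. The cause was not tested. Leaving out 1 library, where the lone sample is assumed to vary like the other group, gave 7287 to 7458 genes, 3 to 6 members, 7 to 11 genes of MYC protein turnover and 1 to 2 other cell type markers, the lowest counts of these lists coming without shMETTL14 replicate 1, shNC replicate 2 and shMETTL14 replicate 2 in that order. Upper quartile scaling called 1 germline gene, TDRKH. Summed log2 ratios with upper quartile scaling and library size alone were 0.21 and 0.23 for the MYC paralogs with MYCN, -0.21 and -0.19 for the MXD family, -0.24 and -0.22 for MAX, and 0.03 and 0.05 for MLX with its partners, against 0.28, -0.14, -0.17 and 0.10 with TMM. MNT with MGA moved from -0.11 to -0.18 with upper quartile scaling. Both groups carry replicate numbers 1 and 2, but the deviations of same-numbered libraries did not go together (Pearson -0.0018, Spearman 0.0221, across 16309 genes). With 2 libraries per group, this cannot show whether same-numbered libraries were prepared together, which the labels do not say. With the replicate block, 8926 genes and 6 members were called. Depth limits MYC and MLXIPL, which had too few counts to test, and MYCL.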

Other observations

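Other factors of the basic helix-loop-helix family that bind E-boxes were measured beside the network. Of 9 listed, 8 were tested and 4 passed, 3 lower and 1 higher, with a median log2 fold change of -0.27. The share called, 50%, was near the 52.5% over all tested genes. With upper quartile scaling the higher call was lost and the 3 lower ones stayed. TFAP4, itself a MYC target, had 809 and 807 counts in shNC and 565 and 532 in shMETTL14 (-0.55 ± 0.0735, edgeR adjusted p = 1.7e-06). The lipid regulators SREBF1 (-0.47 ± 0.0693, adjusted p = 6.9e-06) and SREBF2 (-0.38 ± 0.041, adjusted p = 8.7e-08) also fell. TFE3, a lysosome regulator, rose by 0.17 ± 0.0623 (adjusted p = 0.0276), a call that held in 4 of 11 alternatives.

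Among 10 germline genes known to be silenced by PRC1.6, the complex of MGA, only STAG3 and TDRKH had enough counts to test. TDRKH had 798 and 821 counts in shNC and 786 and 695 in shMETTL14 (-0.12 ± 0.0726, adjusted p = 0.174), and STAG3 had 20 and 14 against 18 and 15 (-0.03 ± 0.42, adjusted p = 0.954). DDX4 and DAZL, which mark germ cells, had at most 1 count in any library. TAF7L had 4 and 6 counts in shNC and 18 and 8 in shMETTL14 and was not tested.

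Of the 7 noradrenergic markers 6 fell and 1, ISL1, rose (0.28 ± 0.0444, adjusted p = 1.5e-05), while 52.5% of all tested genes were called. Those that fell included DBH (-0.79 ± 0.0461, adjusted p = 5.5e-12), TH (-0.38 ± 0.0444, adjusted p = 2.7e-07) and HAND2 (-0.29 ± 0.0365, adjusted p = 6.8e-07). The 2 called markers of other cell types were COL1A1 (-0.48 ± 0.122, adjusted p = 0.00222) and EPCAM (-0.72 ± 0.208, adjusted p = 0.00583).

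Over the 4 libraries, the genes whose centred log2 CPM lay nearest to that of MGA, among 11624 candidates, were MPHOSPH9 (Euclidean distance 0.0111, log2 fold change -0.27), HP1BP3 (0.0124, -0.29) and CAT (0.0153, -0.28). With 4 libraries in 2 groups, this is a description of similar size and spread.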
